A study of Sus scrofa with 36 samples.

Results

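The genes described here encode the subunits of voltage-gated and related potassium, sodium and calcium channels. They were chosen by symbol alone, as every gene whose name begins with KCN or CACN, the numbered HCN genes, and the SCN genes that end in a number with A or B, and none was chosen by its values. There were 136 members among the 20683 genes measured, of which 94 were KCN, 4 HCN, 13 SCN and 25 CACN genes. All 136 matched a RefSeq gene of the pig by symbol.

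RNA of pig (Sus scrofa) cells was sequenced in bulk in 36 libraries of 11 groups. The first set held fibroblasts (n = 4) and undifferentiated induced pluripotent stem cells (iPSCs) of 3 clonal lines, labelled PiPS-EP1 minusPD c4 p11 (here clone 1, n = 3), PiPS-EP5 minusPD minusA83 c12 p10 (clone 2, n = 4) and PiPS-EP5 minusPD minusA83 c18 p15 (clone 3, n = 4). The series calls its iPSCs transgene-free. The second set came from 1 further clonal line, clone 8, with 3 libraries in each group: undifferentiated cells freed of their mouse feeder cells (day 0), cells labelled primitive streak or mesendoderm (day 1), presomitic mesoderm (day 2), somite (day 3), endothelial (day 6), beating cardiomyocyte (day 9) and neuro progenitor (day 24). The media are given in the labels only as codes (E8A100ch3 for day 1, S1LDN for day 2, S2LDN for day 3). All differentiated groups share the 1 line, so they say nothing about how lines vary. The labels do not say whether replicates were grown apart, and p-values therefore measure only the spread between these libraries, which may be technical.

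Ion channels let a chosen ion cross the cell membrane. Voltage-gated sodium and calcium channels carry the inward currents that start an action potential, and calcium entry couples it to contraction or transmitter release. Potassium channels set the resting potential and end the action potential, and HCN channels carry the pacemaker current of the sinus node and of some neurons. Most channels are built of a pore-forming subunit and accessory subunits that change its gating or its transport to the membrane. Heart muscle and nerve draw on the same families with different members: the calcium channel CACNA1C and the subunit KCNE1 are known from heart, and SCN1A, SCN8A and CACNA1A from nerve.

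Marker genes of heart and nerve went against the labels of 2 libraries. TNNT2, a troponin of heart muscle, stood at 4380 TPM (a read share scaled for transcript length) in cardiomyocyte replicate 1 and 4409 in replicate 3, but at 4.28 in the library labelled cardiomyocyte replicate 2. PAX6, a transcription factor of neural progenitors, stood at 360 TPM in neural progenitor replicate 2 and 339 in replicate 3, and at 0.19 in the library labelled neural progenitor replicate 1. That library held 5155 TPM of TNNT2, and the library labelled cardiomyocyte replicate 2 held 254 TPM of PAX6. Neither library entered the tests below or was moved to another group, and their values stand apart. "Cardiac" therefore means cardiomyocyte replicates 1 and 3 (n = 2), and "neural" means neural progenitor replicates 2 and 3 (n = 2). A library of clone 8 held between 1845333 and 9727315 estimated counts, one of clones 1 to 3 between 24314241 and 69879325, and one of fibroblasts between 6877298 and 36738189. The lowest was neural progenitor replicate 3, against 7120672 in replicate 2. Low or absent counts in the neural libraries therefore rest mainly on replicate 2. The members took 0.0273% to 0.211% of the counts of a library, and a channel gene at 1 TPM therefore rests on few reads in clone 8. The counting strand is not given in the sources used here, and 39 members overlap another RefSeq gene, among those described KCNQ1, KCNH7, KCNIP1, KCNIP4, KCNJ2, KCNJ6, KCNK9, KCNMA1, KCNMB2, KCNN2, KCNQ3, KCNS2, KCNE3, KCNAB1, KCND3, SCN1A, SCN9A, CACNA1D, CACNA1E, CACNA2D3, CACNA2D4, CACNB2 and HCN3. Reads of these genes and of their neighbours may not be told apart.

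Channel transcripts were most abundant in the neural libraries. The TPM of the 136 members summed to 964 and 1114 there, against 284 and 371 in the cardiac libraries, 261 to 274 at day 0, and 127 to 206 at day 1, where the sum was lowest. The 2 sets of libraries were fitted separately, so levels set across them are descriptions with no test. A mean of 1 TPM was reached by 82 members in the neural libraries, by 41 at day 0, by 31 in the cardiac libraries and by 21 in fibroblasts. Of all genes 12867, 12220, 11544 and 11163 reached it in these groups. Of the 103 members that reached 1 TPM in some group, 66 had their highest mean in the neural libraries and 11 in the cardiac libraries, and none had it at day 1. The matching shares of all genes are not given here. KCNV2, a silent potassium channel subunit, was at 0 in all 36 libraries, and the other 32 members under 1 TPM in every group are counted below only where they passed the filter on low counts. In these bulk libraries fewer cells of a type and less RNA per cell cannot be told apart.

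**Figure D1:**
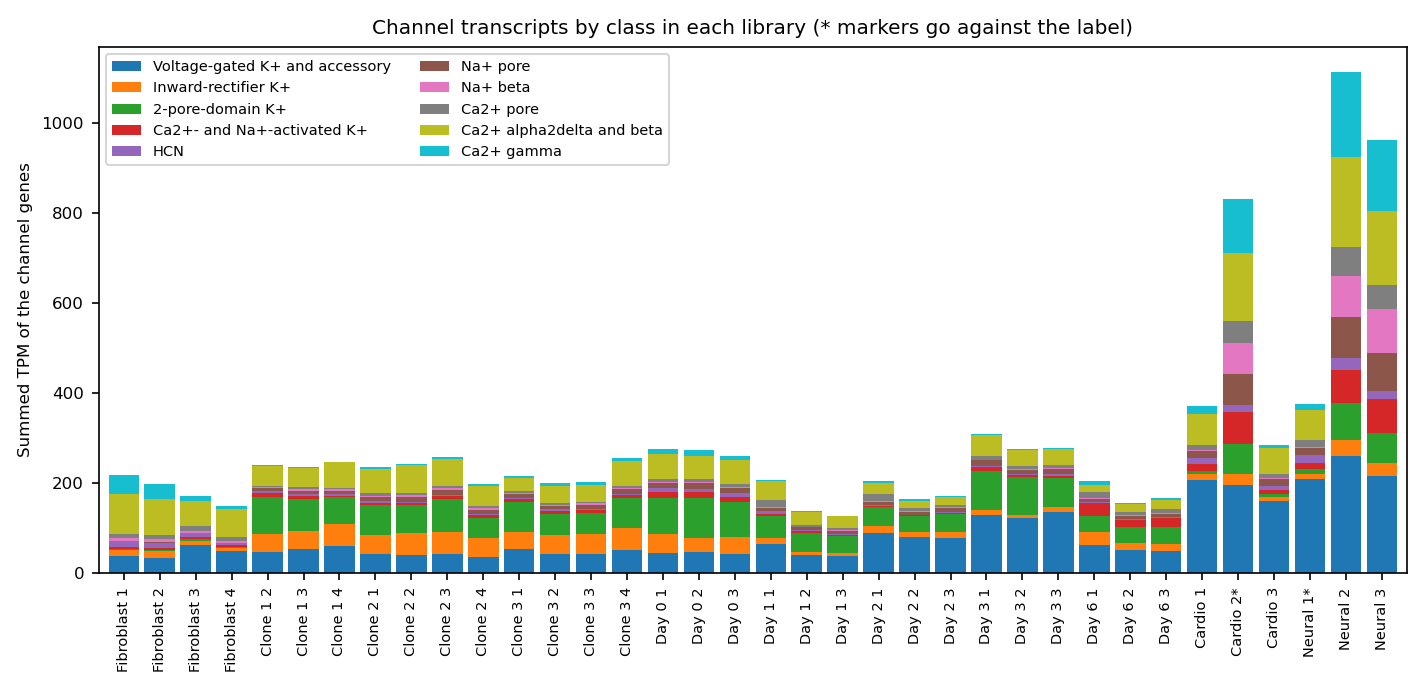
Summed TPM of the 136 channel genes in each of the 36 libraries, stacked by class. The neural libraries 2 and 3 reach 1114 and 964 TPM, the library labelled cardiomyocyte replicate 2 reaches 831, the library labelled neural progenitor replicate 1 reaches 375, and all others lie at or below 371.

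The leading members differed between groups. KCNE1, a single-pass accessory subunit, alone made up 48.2% of the summed TPM in the cardiac libraries and 34.8% at day 3. KCNE3, another subunit of that family, made up 26.4% at day 2. KCNK1, a 2-pore-domain channel of the resting potential, led at day 0 with 46.5 ± 4.50 TPM (SD, n = 3), and the calcium channel subunit CACNB3 led in fibroblasts. Neural libraries were spread more evenly: the leading gene CACNG7, a gamma subunit known in nerve cells as a partner of AMPA receptors, held 10.1%. The 3 members at a mean of 1 TPM or more in all 11 groups were the calcium channel accessory subunits CACNA2D1, CACNB1 and CACNB3.

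The cardiac and neural libraries were compared first. The former are of day 9 and the latter of day 24, so cell type and day cannot be told apart. Of 102 members tested 78 passed (edgeR quasi-likelihood test, adjusted p under 0.05), 14 higher in the cardiac and 64 higher in the neural libraries. Of all genes tested 63.7% passed, 31.9% higher and 31.8% lower in the cardiac libraries, against 76.5%, 13.7% and 62.7% of the members. The median log2 difference of the members was -2.75, or -2.54 with groups at 0 held at 3 counts in all, against 0 for all genes tested. In 85 members (83.3%) the libraries of both groups did not overlap in TPM, and the same held for 78.5% of all genes tested. TPM and the fitted differences are not on the same scale here: the median of all genes was -0.55 on log2(TPM + 1), so that a gene with equal counts per effective library has fewer TPM in the cardiac libraries, and the fitted values are the ones relative to that shift.

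**Figure D2:**
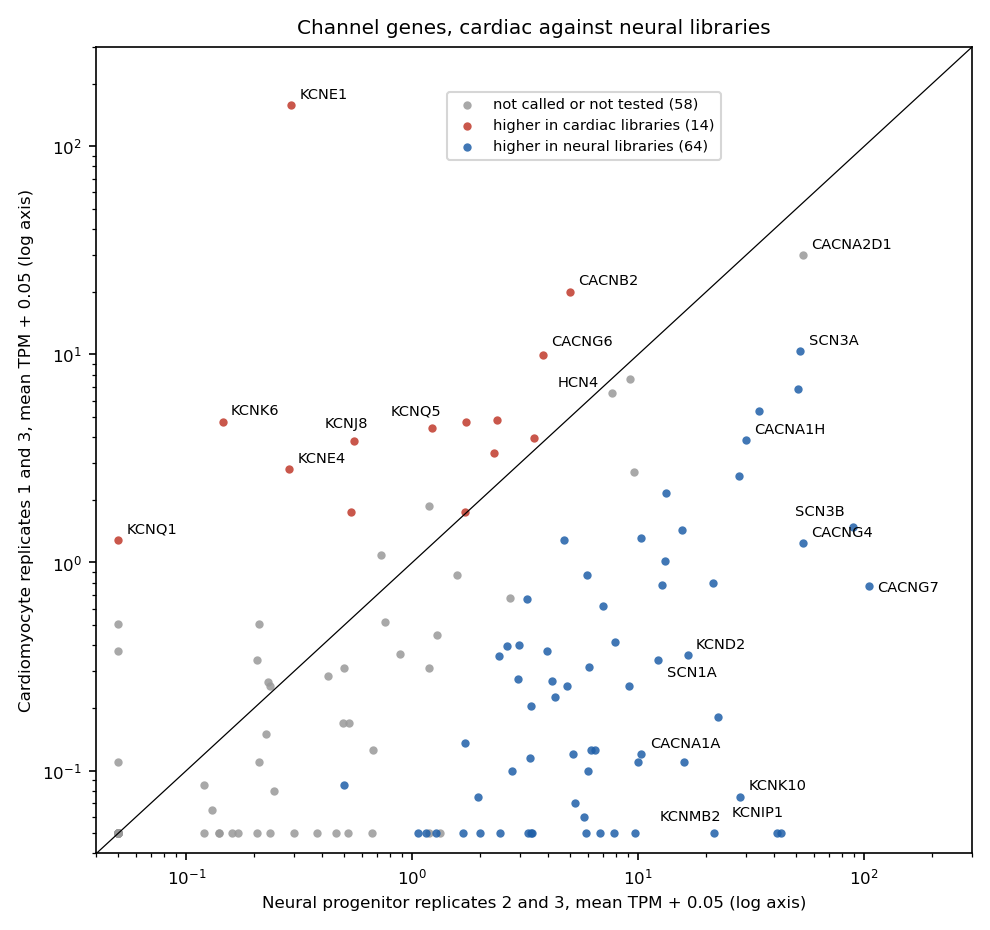
Mean TPM plus 0.05 of each of the 136 channel genes in the cardiac libraries (vertical, log axis) and in the neural libraries (horizontal, log axis), with the line of equal TPM. The 14 members that passed as higher in the cardiac libraries are red, the 64 that passed as higher in the neural libraries are blue, and KCNE1 stands apart at the upper left.

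Among the voltage-gated potassium channels and their accessory subunits 6 members passed as higher in the cardiac libraries, among them the pair that forms the slow delayed rectifier of heart muscle. KCNE1, its accessory subunit, stood at 177 and 138 TPM in the cardiac libraries and at 0.48 and 0.00 in the neural libraries. The counts were 806 against 1, a ratio of 727 with an exact 95% counting interval of 130 to 28740 (adjusted p = 5.59e-12). KCNQ1, the pore that KCNE1 joins, was far lower, at 1.46 and 1.00 TPM against 0 in both neural libraries. It was at least 7.81-fold higher in the cardiac libraries (adjusted p = 0.00335), and the call was lost without neural progenitor replicate 2. KCNE4, an inhibitory subunit of KCNQ1, was at 3.41 and 2.13 TPM against 0.47 and 0.00, a log2 difference of 3.78 ± 0.93 (SE, adjusted p = 0.00164). The libraries did not overlap in any of these genes.

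A further 3 potassium channel genes of this class passed as higher. KCNQ5, which carries an M-type current, was at 4.99 and 3.79 TPM against 1.46 and 0.88 (log2 difference 2.54 ± 0.57, SE, adjusted p = 0.00047). KCNH7, of the ERG family, was at 3.43 and 3.19 TPM against 2.31 and 2.21. Its log2 difference of 1.38 ± 0.46 (SE, adjusted p = 0.013) did not pass when any 1 of the 4 libraries was left out. KCNAB1, a cytoplasmic beta subunit, passed with 1.15 ± 0.43 (SE, adjusted p = 0.0243) although its TPM overlapped, at 3.85 and 3.95 against 4.95 and 1.85, and it lost the call without cardiomyocyte replicate 3 or neural progenitor replicate 3 and in limma on log2(TPM + 1). KCNH2, the ERG channel of the heart's rapid delayed rectifier, did not pass, with 3.73 and 1.59 TPM against 10.7 and 8.38 (log2 difference -1.06 ± 0.57, SE, adjusted p = 0.11).

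The neural side held most of this class. Of the 25 tested pore subunits of voltage-gated potassium channels 17 were lower and 3 higher in the cardiac libraries, and of the 5 tested silent subunits 3 were lower and none higher. KCNH8, an ELK channel, was at 10.9 and 8.31 TPM in the neural libraries, and KCNC1, a fast delayed rectifier, at 2.97 and 3.61. Both were at 0 in the cardiac libraries and at least 74.7-fold and 10.7-fold apart (adjusted p = 3.36e-06 and 0.00291), and KCNC1 did not pass in DESeq2.

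The A-type current, a fast transient potassium current in both tissues, is carried by KCND channels with KCNIP subunits. KCND2 was at 18.2 and 14.8 TPM in the neural libraries and at 0.32 and 0.30 in the cardiac libraries (log2 difference -4.92 ± 0.66, SE, adjusted p = 9.51e-07). KCND3 was at 8.64 and 3.57 TPM against 0.09 and 0.06 (-5.49 ± 1.12, SE, adjusted p = 0.000179). KCNIP1, a calcium sensor that joins them, was at 48.8 and 33.7 TPM against 0 in both cardiac libraries, at least 68.4-fold apart (adjusted p = 2.2e-06). KCNIP2, the sensor known for the heart's transient outward current, was also the lower in the cardiac libraries, at 0.34 and 0.11 TPM against 2.05 and 3.75. Its log2 difference of -2.08 ± 0.81 (SE, adjusted p = 0.0295) was lost without cardiomyocyte replicate 1, cardiomyocyte replicate 3 or neural progenitor replicate 3. These 4 genes were at under 0.5 TPM in both cardiac libraries.

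Among the silent subunits, which form no channel alone but modify KCNB channels, KCNF1 was at 17.5 and 14.3 TPM in the neural libraries and at 0.00 and 0.12 in the cardiac libraries. Its counts were 120 against 1, a ratio of 133 (exact 95% counting interval 23.4 to 5300, adjusted p = 2.24e-06). KCNS2 was at 3.97 and 2.68 TPM against 0, at least 19.96-fold apart (adjusted p = 0.000389). KCNG4 passed too, with 61 counts against 1 (ratio 67.7, exact 95% counting interval 11.7 to 2715, adjusted p = 0.00181), but not without neural progenitor replicate 2. KCNIP4 and KCNAB2 passed as lower in the cardiac libraries with log2 differences of -3.39 ± 0.99 and -2.96 ± 0.47 (SE, adjusted p = 0.00467 and 1.1e-05), KCNIP4 not without cardiomyocyte replicate 3.

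Inward rectifiers hold the resting potential or couple it to receptors and metabolism. Of 11 tested 2 were higher and 5 lower in the cardiac libraries. KCNJ8, a pore of ATP-sensitive channels in heart and vessels, was at 5.54 and 2.06 TPM against 1.00 and 0.00 (log2 difference 3.13 ± 0.98, SE, adjusted p = 0.00842), and the call was lost without cardiomyocyte replicate 1 or neural progenitor replicate 3. KCNJ11, the other ATP-sensitive pore, was at 1.91 and 1.71 TPM against 0.87 and 1.40 and did not pass (adjusted p = 0.147). KCNJ2, the main inward rectifier of ventricular muscle, was at 2.08 and 1.31 TPM against 2.28 and 1.04. These values overlapped, and its call (1.14 ± 0.46, SE, adjusted p = 0.0361) was lost without cardiomyocyte replicate 1, neural progenitor replicate 2 or neural progenitor replicate 3 and in DESeq2.

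The G-protein-coupled rectifiers were all the higher in the neural libraries. KCNJ3 and KCNJ5, which together form the acetylcholine-gated channel of the atrium, were at 3.76 and 1.40 TPM and at 6.52 and 9.23 TPM there, against 0.53 and 0.16 and 0.36 and 0.37 in the cardiac libraries. Their log2 differences were -2.41 ± 0.56 and -3.52 ± 0.93 (SE, adjusted p = 0.000721 and 0.0022), and the call of KCNJ3 was lost without neural progenitor replicate 2. KCNJ6, a neuronal subunit of the same channels, had 190 counts against 1, a ratio of 211 (exact 95% counting interval 37.4 to 8366, adjusted p = 2.65e-06). KCNJ9, a further neuronal subunit, had a log2 difference of -3.30 ± 1.14 (SE, adjusted p = 0.0149), lost without cardiomyocyte replicate 1 or neural progenitor replicate 2.

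Of the 7 tested 2-pore-domain channels, which carry leak currents, 1 was higher and 5 were lower in the cardiac libraries. KCNK6 was the higher one, at 5.60 and 3.80 TPM against 0.19 and 0.00. With 184 counts against 3 the ratio was 55.3 (exact 95% counting interval 18.6 to 271, adjusted p = 2.43e-08). The neural side held KCNK10 and KCNK2, leak channels opened by membrane stretch and lipids. KCNK10 was at 32.8 and 23.6 TPM with 847 counts against 1 (ratio 939, exact 95% counting interval 168 to 37146, adjusted p = 1.14e-10), and KCNK2 at 27.1 and 18.0 TPM with 265 counts against 2 (ratio 147, 40.3 to 1220, adjusted p = 3.04e-09). KCNK9, an acid-sensitive leak channel, was at 6.78 and 8.78 TPM against 0, at least 29.6-fold apart (adjusted p = 0.000339), though not called by DESeq2. KCNK1 passed with 12.5 and 13.9 TPM against 1.73 and 2.50 (-1.78 ± 0.32, SE, adjusted p = 4.75e-05). KCNK5 was called on under 1 TPM, at 0.90 and 0.00 TPM against 0.00 and 0.07, and without neural progenitor replicate 2 its direction turned (log2 difference 2.52).

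No channel activated by calcium or sodium passed as higher in the cardiac libraries, and 6 of 7 tested were lower. KCNMA1, the large-conductance BK pore, was at 5.05 and 6.78 TPM in the neural libraries and at 0.10 and 0.00 in the cardiac libraries (174 counts against 1, ratio 193, exact 95% counting interval 34.2 to 7665, adjusted p = 1.52e-07). KCNMB2, the BK subunit that makes the channel inactivate, was at 20.99 and 22.17 TPM against 0, at least 73.9-fold apart (adjusted p = 6.92e-05). KCNT1, a sodium-activated channel, was at 2.05 and 1.19 TPM against 0, at least 10.7-fold apart (adjusted p = 0.0015).

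Of the HCN genes 3 are described. HCN4, the main pacemaker channel of the sinus node, was at 7.19 and 5.76 TPM against 9.69 and 5.56, and these libraries overlapped (0.50 ± 0.44, SE, adjusted p = 0.328). HCN2 was at 0.53 and 0.00 TPM against 6.17 and 5.80 (-3.90 ± 0.91, SE, adjusted p = 0.000748), and HCN3 had a log2 difference of -2.84 ± 0.49 (SE, adjusted p = 3.16e-05). The libraries lay apart in HCN2 and HCN3.

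Of the 7 tested sodium channel pores 4 passed as lower in the cardiac libraries. SCN3A, known as a sodium channel of the fetal brain, was the most abundant pore in both, at 10.2 and 10.4 TPM in the cardiac and 54.6 and 49.7 TPM in the neural libraries (-1.53 ± 0.28, SE, adjusted p = 7.33e-05).

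SCN1A and SCN8A, which start the action potentials of neurons, were at 12.1 and 12.4 TPM and at a mean of 12.8 TPM in the neural libraries. In the cardiac libraries SCN1A was at 0.18 and 0.40 TPM and SCN8A at 0.58 and 0.88, with log2 differences of -4.51 ± 0.50 and -3.29 ± 0.31 (SE, adjusted p = 7.03e-08 and 5.9e-09). SCN9A, known from pain-sensing neurons, was at 9.06 and 11.3 TPM against 1.83 and 0.69 (-2.33 ± 0.38, SE, adjusted p = 1.3e-05). SCN3A, SCN1A and SCN9A lie in 1 cluster with SCN7A on chromosome 15 of Sscrofa11.1, at 71717330 to 71824190, 72529866 to 72696715, 72745706 to 72912352 and 72946147 to 73026656. SCN7A, an atypical sodium channel, did not share their neural levels: it was at 0.54 and 1.53 TPM in the cardiac and 0.16 and 1.19 TPM in the neural libraries.

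Beta subunits of sodium channels steer their gating and adhesion. SCN3B was at 86.4 and 92.6 TPM in the neural libraries against 1.33 and 1.54 in the cardiac libraries, far apart (-5.18 ± 0.39, SE, adjusted p = 1.46e-10). SCN2B was lower as well (-3.67 ± 0.89, SE, adjusted p = 0.001). SCN4B had too few counts to be tested.

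Calcium channel pores also lay mostly on the neural side, with 1 of 9 tested higher and 6 lower in the cardiac libraries. CACNA1C, the L-type channel that triggers contraction of the heart, was at 5.33 and 4.28 TPM against 3.77 and 0.86 (log2 difference 1.66 ± 0.56, SE, adjusted p = 0.0124), a call lost without neural progenitor replicate 3. CACNA1D, the L-type channel of the sinus node and of neurons, was at a mean of 0.26 TPM against 1.13 and did not pass (adjusted p = 0.0946). The P/Q-type channel CACNA1A and the N-type channel CACNA1B, which drive transmitter release, were at 12.4 and 8.15 TPM and at 6.63 and 6.08 TPM in the neural libraries. In the cardiac libraries neither exceeded 0.15 TPM. CACNA1A had a log2 difference of -6.53 ± 0.72 (SE, adjusted p = 6.25e-08), and CACNA1B had 164 counts against 3, a ratio of 60.6 (exact 95% counting interval 20.4 to 297, adjusted p = 5.9e-05).

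The remaining called pores were also higher in the neural libraries. CACNA1E, an R-type channel, had a log2 difference of -5.10 ± 0.92 (SE, adjusted p = 4.91e-05). T-type channels open at low voltage and are known in pacemaker cells and in neurons. CACNA1G was at 5.43 and 4.11 TPM against 0.23 and 0.18 (-3.89 ± 0.52, SE, adjusted p = 8.54e-07), and CACNA1H at 29.7 and 30.0 TPM against 4.79 and 2.88 (-2.19 ± 0.50, SE, adjusted p = 0.000564). CACNA1I, the last of the T-type genes, had 51 counts against 0, at least 18.9-fold apart (adjusted p = 0.000361).

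Of the 8 tested calcium channel accessory subunits 1 was higher and 5 were lower in the cardiac libraries. CACNB2, the main beta subunit of the heart's L-type channel, was at 23.7 and 16.2 TPM in the cardiac and 5.03 and 4.81 TPM in the neural libraries (log2 difference 2.69 ± 0.48, SE, adjusted p = 4.08e-05). CACNA2D1, an alpha2delta subunit of muscle and nerve, was the most abundant calcium channel transcript of the cardiac libraries, at 32.7 and 27.0 TPM. It was at 49.7 and 57.0 TPM in the neural libraries, and the fitted difference was -0.06 ± 0.15 (SE, adjusted p = 0.736). CACNA2D2 was at 23.3 and 19.3 TPM in the neural libraries against 0.81 and 0.69 (-4.04 ± 0.47, SE, adjusted p = 1.43e-07), and CACNA2D3 had -2.75 ± 0.67 (SE, adjusted p = 0.00106), lost without neural progenitor replicate 2. CACNB4 passed on 13 counts against 0, at least 4.81-fold apart (adjusted p = 0.00772), and not without cardiomyocyte replicate 3 or neural progenitor replicate 2.

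A pair of neighbouring gamma subunit genes went in opposite directions. CACNG6, a subunit that joins muscle calcium channels, lies on chromosome 6 at 56123598 to 56151145 and CACNG7 at 56188362 to 56211655. CACNG6 was at 13.9 and 5.96 TPM in the cardiac and 4.81 and 2.67 TPM in the neural libraries (2.45 ± 0.63, SE, adjusted p = 0.0018), a call lost in limma on log2(TPM + 0.1). CACNG7 was at 0.51 and 0.94 TPM against 112 and 98.3 (-6.29 ± 0.54, SE, adjusted p = 1.1e-09). CACNG2 and CACNG3, partners of AMPA receptors like CACNG7, had 46 counts against 0 and 54 against 1. CACNG2 was at least 17.0-fold apart (adjusted p = 0.0014), and CACNG3 had a ratio of 59.9 (exact 95% counting interval 10.3 to 2409, adjusted p = 0.00487), not called by DESeq2 or without cardiomyocyte replicate 3. CACNG4 reached 57.4 and 49.4 TPM in the neural libraries and 1.88 and 0.50 in the cardiac libraries.

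Markers of other cell types moved with these differences. The 10 cardiac markers summed to 33570 and 34980 TPM in the cardiac libraries against 130 to 422 in the neural libraries, and the 10 neural markers to 4699 and 4918 TPM in the neural libraries against 92.4 to 128. TNNT2 is among the former and PAX6 among the latter. Both served to choose these libraries, so the gap between these sums was partly fixed beforehand. The cardiac libraries also held more transcript of the 4 smooth muscle markers, at 3911 to 4815 TPM against 21.03 to 21.47 with all 4 higher, and of the 6 fibroblast markers, at 770 to 1121 TPM against 35.4 to 39.7 with 5 higher. KCNE4, KCNJ8 and CACNA1C are known from vessel walls as well as from heart, and the part of such cells in their levels was not tested.

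Both libraries whose markers go against the label resembled the opposite group in the channel genes too. Of the 78 members that passed, the library labelled cardiomyocyte replicate 2 was nearer to the mean of the neural libraries in 74, and the library labelled neural progenitor replicate 1 was nearer to the mean of the cardiac libraries in 77. This was not particular to channel genes. Over 15214 genes the former had rank correlations (Spearman) of 0.981 and 0.974 with the neural and 0.752 and 0.743 with the cardiac libraries. The latter had 0.986 and 0.985 with the cardiac and 0.732 and 0.738 with the neural libraries. KCNE1 was at 0 TPM in the former and at 179 in the latter, and CACNB2 at 1.57 and 16.6. With all libraries taken as labelled no member passed (4 had an unadjusted p under 0.05), and with the libraries grouped by TNNT2 against PAX6 80 passed. The share of all genes that passed is not given here for either fit.

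**Figure D3:**
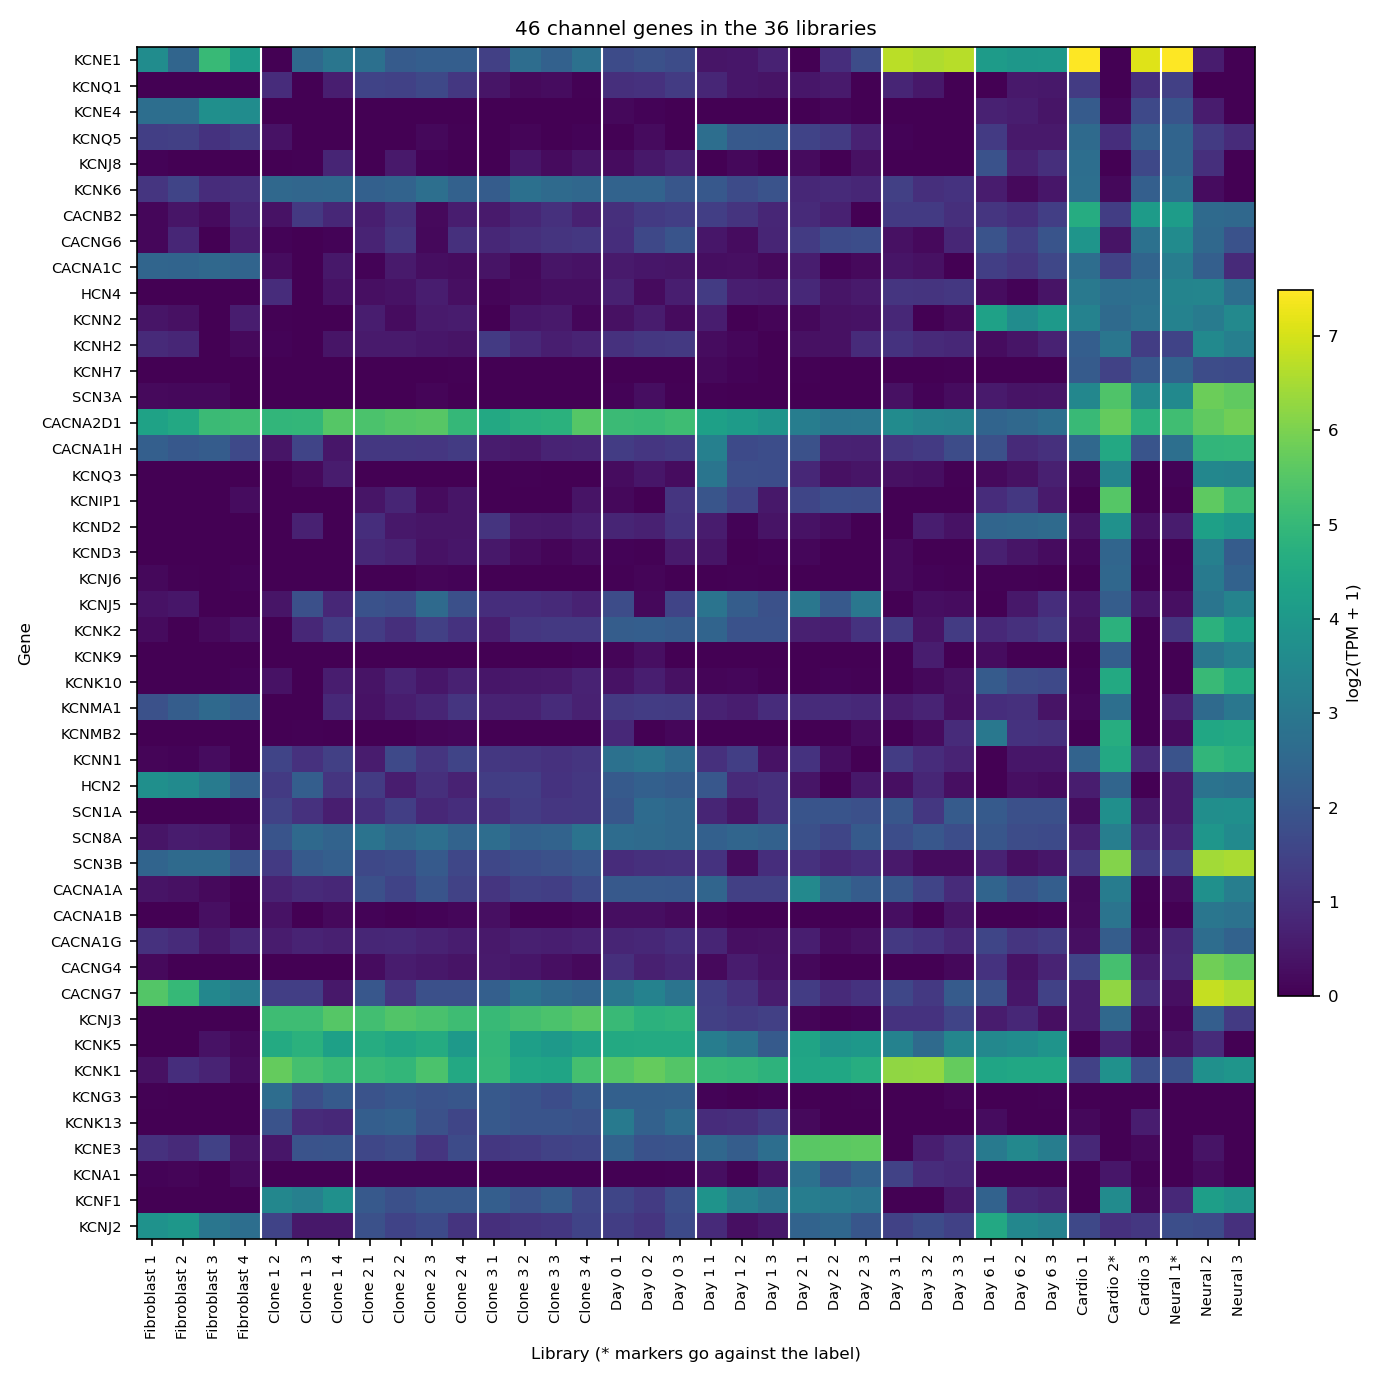
Levels of 46 channel genes, as log2(TPM + 1), in the 36 libraries, with white lines between groups and an asterisk at the 2 libraries whose TNNT2 and PAX6 go against their label. The library labelled cardiomyocyte replicate 2 shows the pattern of neural libraries 2 and 3, with SCN3A at 41.6 TPM, and the library labelled neural progenitor replicate 1 that of cardiac libraries 1 and 3, with KCNE1 at 179 TPM.

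Against the undifferentiated cells of day 0 the cardiac, neural and endothelial libraries are compared with the same 3 control libraries, so their values are given side by side and not related to each other. In the cardiac libraries 50 of 102 members passed, 18 higher and 32 lower, where 61.7% of all genes passed, 30.3% higher and 31.4% lower. The members' share was 49%, and their median log2 difference was -0.87.

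KCNE1 rose from 2.29, 2.64 and 2.33 TPM at day 0 to 177 and 138 TPM (log2 difference 6.41 ± 0.33, SE, adjusted p = 2.08e-13), while KCNQ1 was at 1.00, 1.09 and 1.49 TPM at day 0 and did not pass (0.43 ± 0.79, SE, adjusted p = 0.66). HCN4 rose from 0.62, 0.16 and 0.56 TPM to 7.19 and 5.76 (4.26 ± 0.46, SE, adjusted p = 3.82e-08). The L-type pair rose together, CACNA1C by 4.05 ± 0.54 and CACNB2 by 4.22 ± 0.43 on the log2 scale (SE, adjusted p = 9.7e-07 and 1.63e-08). KCNH2 rose less (1.55 ± 0.54, SE, adjusted p = 0.0162) and lost its call without cardiomyocyte replicate 1.

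SCN3A was at 0.06, 0.22 and 0.03 TPM at day 0 and rose by 7.10 ± 0.38 on the log2 scale in the cardiac libraries (SE, adjusted p = 1.34e-12) and by 8.63 ± 0.38 in the neural libraries (SE, adjusted p = 5.77e-14). KCNH7 was at 0 in all 3 day 0 libraries and was at least 235-fold higher in the cardiac and at least 90.1-fold higher in the neural libraries (adjusted p = 3.09e-10 and 7.23e-09). CACNA1H rose by 1.84 ± 0.47 in the cardiac and 4.02 ± 0.46 in the neural libraries (SE, adjusted p = 0.00182 and 9.61e-08), the former not in limma. HCN4 rose by 3.76 ± 0.47 in the neural libraries (SE, adjusted p = 2.74e-07). SCN7A was at 0 in all day 0 libraries and at 0.54 and 1.53 TPM in the cardiac libraries, at least 40.2-fold higher (adjusted p = 0.000111).

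The members that fell in the cardiac libraries included KCNK1 and KCNJ3, which were among the leading channels of day 0. CACNA2D1, second to KCNK1 at day 0, did not pass (0.22 ± 0.13, SE, adjusted p = 0.152). KCNK5, an alkaline-activated leak channel, fell from 22.2, 22.9 and 22.9 TPM to 0.00 and 0.07 (984 counts against 1, ratio 416, exact 95% counting interval 74.5 to 16448, adjusted p = 9.08e-11). KCNJ3 fell from 32.4, 27.0 and 28.5 TPM to 0.53 and 0.16 (-6.09 ± 0.47, SE, adjusted p = 1.96e-10), and KCNK1 from 44.3, 51.7 and 43.6 TPM to 1.73 and 2.50 (-3.99 ± 0.28, SE, adjusted p = 2.96e-11). KCNG3, a silent subunit, fell from 3.90, 3.95 and 3.99 TPM to 0, at least 33.4-fold (adjusted p = 1.75e-06). CACNA1A, HCN2 and CACNG7 fell as well, by 5.21 ± 0.73, 3.54 ± 0.87 and 2.86 ± 0.54 on the log2 scale (SE, adjusted p = 1.81e-06, 0.00116 and 7.79e-05).

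In the neural libraries 75 of 102 members passed against day 0, 64 higher and 11 lower, where 63.8% of all genes passed, 32% higher and 31.8% lower. The median log2 difference was 2.22. By class, all 9 tested calcium channel pores rose, 6 of 7 channels activated by calcium or sodium, 5 of 7 sodium channel pores and 17 of 25 voltage-gated potassium channel pores, while 4 of 7 tested 2-pore-domain channels fell and 3 rose. SCN3B rose from 0.93, 1.05 and 1.08 TPM to 86.4 and 92.6 (6.05 ± 0.34, SE, adjusted p = 7.61e-13), and CACNG7 from 6.89, 9.07 and 6.43 TPM to 112 and 98.3 (3.43 ± 0.36, SE, adjusted p = 1.97e-08). The calls of CACNA1C, CACNA1D and CACNB2 were lost without neural progenitor replicate 2.

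The 11 members that fell in the neural libraries included leading channels of day 0. KCNK5 fell by 5.41 ± 0.47 and KCNJ3 by 3.68 ± 0.38 on the log2 scale (SE, adjusted p = 1.05e-09 and 2.02e-08), and KCNK1 by 2.22 ± 0.24 (SE, adjusted p = 4.11e-08). KCNG3 and KCNK13, a 2-pore-domain channel of the halothane-inhibited kind, were at 0 in both neural libraries and at least 30.1-fold and 23.1-fold lower than at day 0 (adjusted p = 3.17e-06 and 3.18e-05). KCNQ1 was at least 5.85-fold lower (adjusted p = 0.0051). KCNE1 fell with 22 counts against 1 (ratio 8.39, exact 95% counting interval 1.36 to 346, adjusted p = 0.0109). Both calls were lost without neural progenitor replicate 2, the deeper neural library.

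In the endothelial libraries of day 6 43 of 102 members passed against day 0, 17 higher and 26 lower, where 45.1% of all genes passed, 24.3% higher and 20.8% lower. KCNN2, a small-conductance calcium-activated channel, was at 18.5, 11.6 and 15.2 TPM against 0.27, 0.50 and 0.17, its highest level in any group (log2 difference 5.52 ± 0.50, SE, adjusted p = 6.01e-09). Its rise was not particular to day 6. In the cardiac libraries KCNN2 was at a mean of 7.585 TPM (5.12 ± 0.53, SE, adjusted p = 2.14e-08). In the neural libraries it was at 9.165 TPM (4.52 ± 0.56, SE, adjusted p = 2.54e-07), both against day 0. KCNJ2, the inward rectifier through which endothelial cells set their resting potential, was at 21.9, 10.1 and 8.87 TPM against 1.57, 1.21 and 2.19 (3.24 ± 0.31, SE, adjusted p = 1.14e-08). KCNN4, the intermediate-conductance channel known from endothelium, was at 0 in all 3 endothelial libraries at this depth.

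KCNE1, KCND2 and KCNK10 rose at day 6 too, by 2.66 ± 0.35, 2.56 ± 0.46 and 2.83 ± 0.39 on the log2 scale (SE, adjusted p = 1.48e-06, 8.91e-05 and 3.34e-06). KCNMB2 was at 6.96, 1.14 and 1.05 TPM against 0.83, 0.00 and 0.09 (3.07 ± 0.94, SE, adjusted p = 0.0113), and 1 library held most of that, since the call was lost without day 6 replicate 1. It was also lost in DESeq2 and without day 0 replicate 3, as was that of the alpha2delta gene CACNA2D4. CACNA2D1 fell from 33.5, 32.2 and 34.8 TPM to 4.34, 4.80 and 5.50 (-2.77 ± 0.13, SE, adjusted p = 1.1e-13). KCNJ3 fell to 0.48, 0.78 and 0.23 TPM (-5.79 ± 0.37, SE, adjusted p = 1.65e-11), while KCNK5 fell less, to 10.3, 11.4 and 13.7 TPM (-0.89 ± 0.25, SE, adjusted p = 0.0065) and KCNK1 to 20.08, 20.83 and 20.87 (-1.14 ± 0.18, SE, adjusted p = 2.58e-05). All 7 endothelial markers were higher at day 6, with sums of 572 to 649 TPM against 5.08 to 9.48. The 6 pluripotency markers still summed to 573 to 735 TPM against 2031 to 2246, mostly LIN28A, and the 10 neural markers to 183 to 232 TPM with 7 higher. The part of such cells in the channel levels was not tested.

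Over days 0 to 3 clone 8 was sampled each day, so that each step can be read. From day 0 to day 1 31 of 102 members passed, 11 higher and 20 lower, where 37.4% of all genes passed, 17.9% higher and 19.5% lower. On log2(TPM + 1) with limma the split was 6 higher and 26 lower, and on log2(TPM + 0.1) 6 and 21, where the median of all genes was -0.18 and -0.25. In 48 members (47.1%) the libraries of both days did not overlap, near the 46.6% of all genes. KCNJ3 fell from 32.4, 27.0 and 28.5 TPM to 1.69, 1.47 and 1.69 within the day (-3.94 ± 0.32, SE, adjusted p = 1.24e-09). KCNG3 fell from 237 counts over the 3 libraries to 2 (ratio 95.2, exact 95% counting interval 26.1 to 790, adjusted p = 6.92e-07). KCNK5 fell to 8.09, 6.16 and 3.31 TPM (-1.76 ± 0.27, SE, adjusted p = 1.48e-05) and CACNA2D1 to 18.2, 16.1 and 13.6 (-0.88 ± 0.12, SE, adjusted p = 4.64e-06). The 3 streak markers summed to 634 to 1094 TPM at day 1 against 16.3 to 26.3 at day 0.

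KCNQ genes of the M-current rose at day 1. KCNQ5 went from 0.04, 0.16 and 0.00 TPM to 5.47, 3.24 and 3.15 (5.99 ± 0.61, SE, adjusted p = 5.12e-08), and KCNQ3 from 0.18, 0.38 and 0.19 TPM to 6.52, 2.50 and 2.44 (4.08 ± 0.50, SE, adjusted p = 7.87e-07). KCNF1 rose to 13.5, 8.39 and 6.49 TPM (2.45 ± 0.46, SE, adjusted p = 0.000229). CACNA1H was at 8.54, 2.19 and 2.38 TPM against 1.5, 1.27 and 1.44 (1.79 ± 0.43, SE, adjusted p = 0.0022) and did not pass in limma. Day 1 replicate 1 was the highest library in all 4, and KCNJ5 (1.71 ± 0.60, SE, adjusted p = 0.0282) did not pass without it or without day 0 replicate 2.

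From day 1 to day 2 23 of 102 members passed, 10 higher and 13 lower, where 23.9% of all genes passed, 12.3% higher and 11.5% lower. Fitted on the 6 libraries alone, 15 of 44 tested passed. The share of all genes in that fit is not given here, and the 23.9% does not apply to it. KCNE3, a subunit that holds KCNQ1 channels open, rose from 4.64, 3.62 and 5.46 TPM to 46.2, 47.4 and 48.4 (3.37 ± 0.32, SE, adjusted p = 3.14e-08). KCNA1, a Shaker-type delayed rectifier, rose from 0.21, 0.00 and 0.28 TPM to 5.99, 2.87 and 4.07 (4.63 ± 0.57, SE, adjusted p = 2.87e-06). KCNJ2 rose to 4.23, 4.64 and 2.99 TPM (3.56 ± 0.39, SE, adjusted p = 2.63e-07) and KCNK5 rose again, to 19.9, 13.6 and 14.8 (1.49 ± 0.27, SE, adjusted p = 0.000211). KCNQ3 fell by 3.07 ± 0.48 and CACNA2D1 by 1.14 ± 0.13 on the log2 scale (SE, adjusted p = 3.41e-05 and 3.59e-07).

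From day 2 to day 3 37 of 102 members passed, 21 higher and 16 lower, where 48.4% of all genes passed, 25.4% higher and 23% lower. On the 6 libraries alone 23 of 35 tested passed. The share of all genes in that fit is not given here, and the 48.4% does not apply to it. In 40 members (39.2%) the libraries of both days did not overlap, a lower share than the 53.3% of all genes. The KCNE subunits changed places. KCNE3 fell to 0.00, 0.56 and 0.90 TPM (-6.82 ± 0.45, SE, adjusted p = 2.95e-11), and KCNE1 rose from 0.00, 0.97 and 2.35 TPM to 103.52, 94.99 and 102.25 (5.95 ± 0.36, SE, adjusted p = 7.51e-12). For both genes the libraries of the 2 days lay apart. Their pore KCNQ1 was low on both days, at 0.37, 0.46 and 0.00 TPM and at 0.72, 0.39 and 0.00 (0.36 ± 1.02, SE, adjusted p = 0.796).

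KCNK1 rose at day 3 from 20.44, 20.99 and 24.57 TPM to 75.1, 75.7 and 51.8, its highest level in any group (1.36 ± 0.19, SE, adjusted p = 2.18e-06). Also higher were KCNA5, the atrial ultrarapid channel (48 counts against 2, ratio 26.1, exact 95% counting interval 6.85 to 222, adjusted p = 0.000328), CACNA1D (63 against 1, ratio 68.6, 11.9 to 2754, adjusted p = 2.26e-05) and KCNT1, at least 14.5-fold (adjusted p = 0.000426). The day 1 and day 2 channels KCNF1, KCNQ5 and KCNJ5 fell to 2, 1 and 2 counts in all, with ratios of 65.2, 66.1 and 51.9 (adjusted p = 1.3e-06, 1.24e-05 and 3.21e-05). The 4 smooth muscle markers summed to 4521 to 5435 TPM at day 3 against 54.0 to 60.0 at day 2, all 4 higher, the 6 fibroblast markers to 416 to 643 against 36.8 to 58.9 with 5 higher, and the 4 somite markers to 23.9 to 32.2 against 17.5 to 20.2 with 2 higher. Whether the rise of KCNE1 belongs to the cells that hold the smooth muscle transcripts was not tested.

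**Figure D4:**
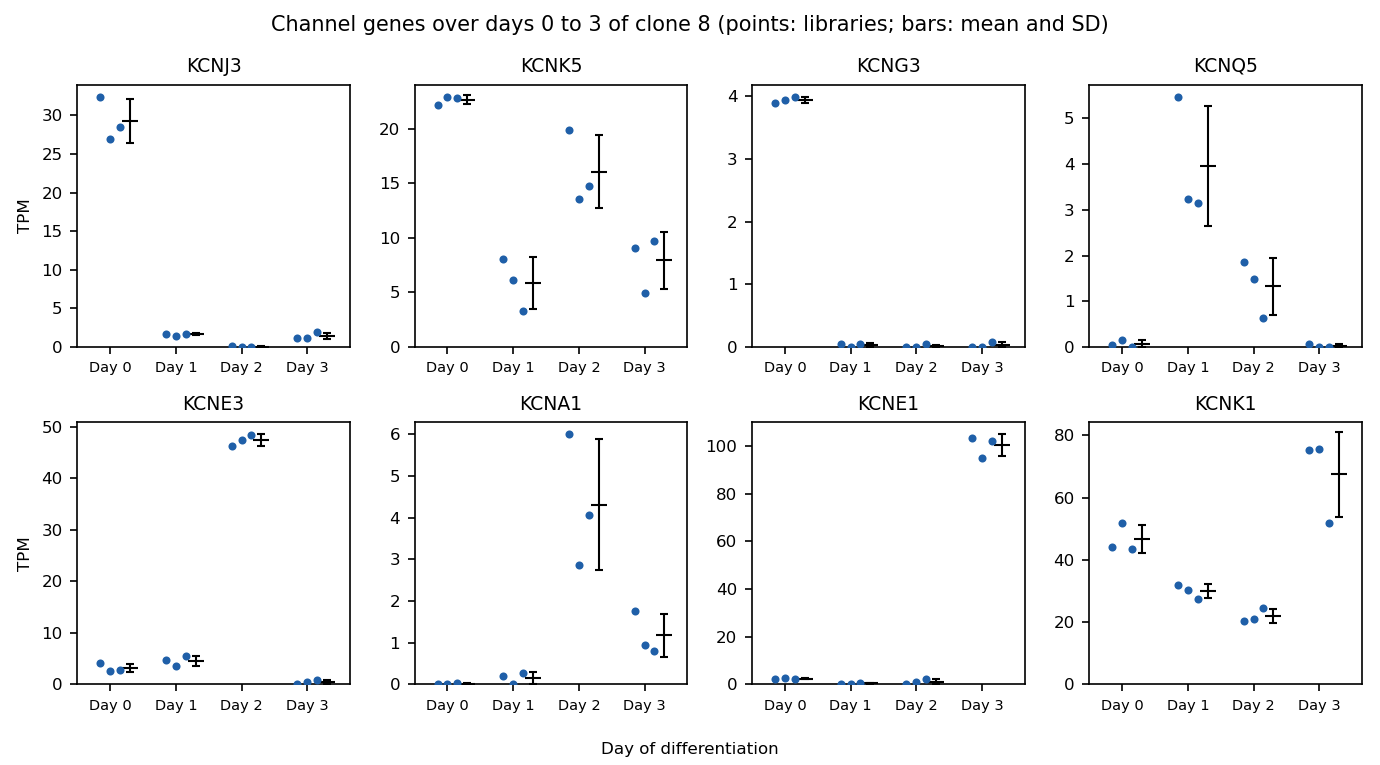
TPM of 8 channel genes in the 3 libraries of each of days 0 to 3 of clone 8. Points are libraries and bars are the mean with its SD, drawn down to 0 at most; KCNJ3 and KCNG3 are high at day 0 alone, KCNE3 reaches 46.2 to 48.4 TPM at day 2, and KCNE1 reaches 94.99 to 103.52 TPM at day 3.

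Clones 1 to 3 were compared with the fibroblasts as the mean of the 3 clones. Of 90 members tested 56 passed, 35 higher and 21 lower in the clones, where 74.6% of all genes passed, 38.6% higher and 35.9% lower. The median log2 difference of the members was 1.24 against 0.11 for all genes. In 36 members (40%) the libraries did not overlap, a lower share than the 52.1% of all genes. The channels that led the undifferentiated clone 8 led here too. KCNJ3 was at 0.00 to 0.02 TPM in the 4 fibroblast libraries and at 31.9 to 46.1 TPM in the 11 clone libraries. With 36543 counts against 1 the ratio was 4921 (exact 95% counting interval 883 to 194394, adjusted p = 2.35e-15).

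KCNK5 was at 0.00 to 0.29 TPM in fibroblasts and 15.5 to 30.3 TPM in the clones (8.90 ± 0.55, SE, adjusted p = 1.1e-10), and KCNK1 at 0.18 to 0.96 against 19.9 to 52.2 TPM (5.73 ± 0.38, SE, adjusted p = 3.01e-10). KCNG3 had 3079 counts against 2 (ratio 207, exact 95% counting interval 57.3 to 1713, adjusted p = 9.55e-10). KCNF1 and KCNV1, both silent subunits, were at 0 in all 4 fibroblast libraries and at least 81.9-fold and 22.0-fold higher in the clones (adjusted p = 1.94e-08 and 0.000752). SCN1A had 1958 counts against 1 (ratio 264, exact 95% counting interval 47.3 to 10421, adjusted p = 1.42e-07). In each of these genes the 4 fibroblast libraries lay below all clone libraries.

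Other members were higher in the fibroblasts. KCNE4 was at 5.53, 5.51, 12.4 and 11.6 TPM in them and at no more than 0.02 TPM in any clone library (-10.74 ± 0.48, SE, adjusted p = 1.17e-11). CACNA1C was at 4.39, 4.34, 4.72 and 4.36 TPM, and no clone library exceeded 0.46 (-4.43 ± 0.53, SE, adjusted p = 6.28e-07). KCNMA1, KCNAB1 and KCNB2 were lower in the clones by 3.10 ± 0.60, 4.57 ± 0.59 and 3.54 ± 0.80 on the log2 scale (SE, adjusted p = 0.000167, 1.65e-06 and 0.000683). The 4 smooth muscle markers summed to 19550 to 42990 TPM in these fibroblasts.

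Many fibroblast channels differed between libraries 1 and 2 and libraries 3 and 4. KCNE4, KCNMA1 and KCNB2, described above, were among those lower in libraries 1 and 2. Libraries 1 and 2 held 36738189 and 26120236 estimated counts, and libraries 3 and 4 held 7508792 and 6877298. The part of depth was not tested. KCNJ2 was at 13.0, 14.5, 6.64 and 5.54 TPM, HCN2 at 12.37, 10.96, 7.68 and 3.91, and CACNG7 at 43.5, 31.4, 10.1 and 8.09. All 3 were above every clone library (-2.30 ± 0.32, -2.83 ± 0.34 and -3.49 ± 0.40, SE, adjusted p = 3.74e-06, 8.38e-07 and 3.42e-07). KCNE1 went the other way, at 11.4, 4.48, 31.8 and 16.6 TPM against 0.00 to 6.63 in the clones, where the groups overlapped (-1.99 ± 0.63, SE, adjusted p = 0.00854), and the call was lost without fibroblast replicate 3. Of the 21 members at a mean of 1 TPM in fibroblasts 15 had libraries 1 and 2 apart from 3 and 4, 10 higher and 5 lower, which is 71.4% against 72.1% of all genes at that level.

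**Figure D5:**
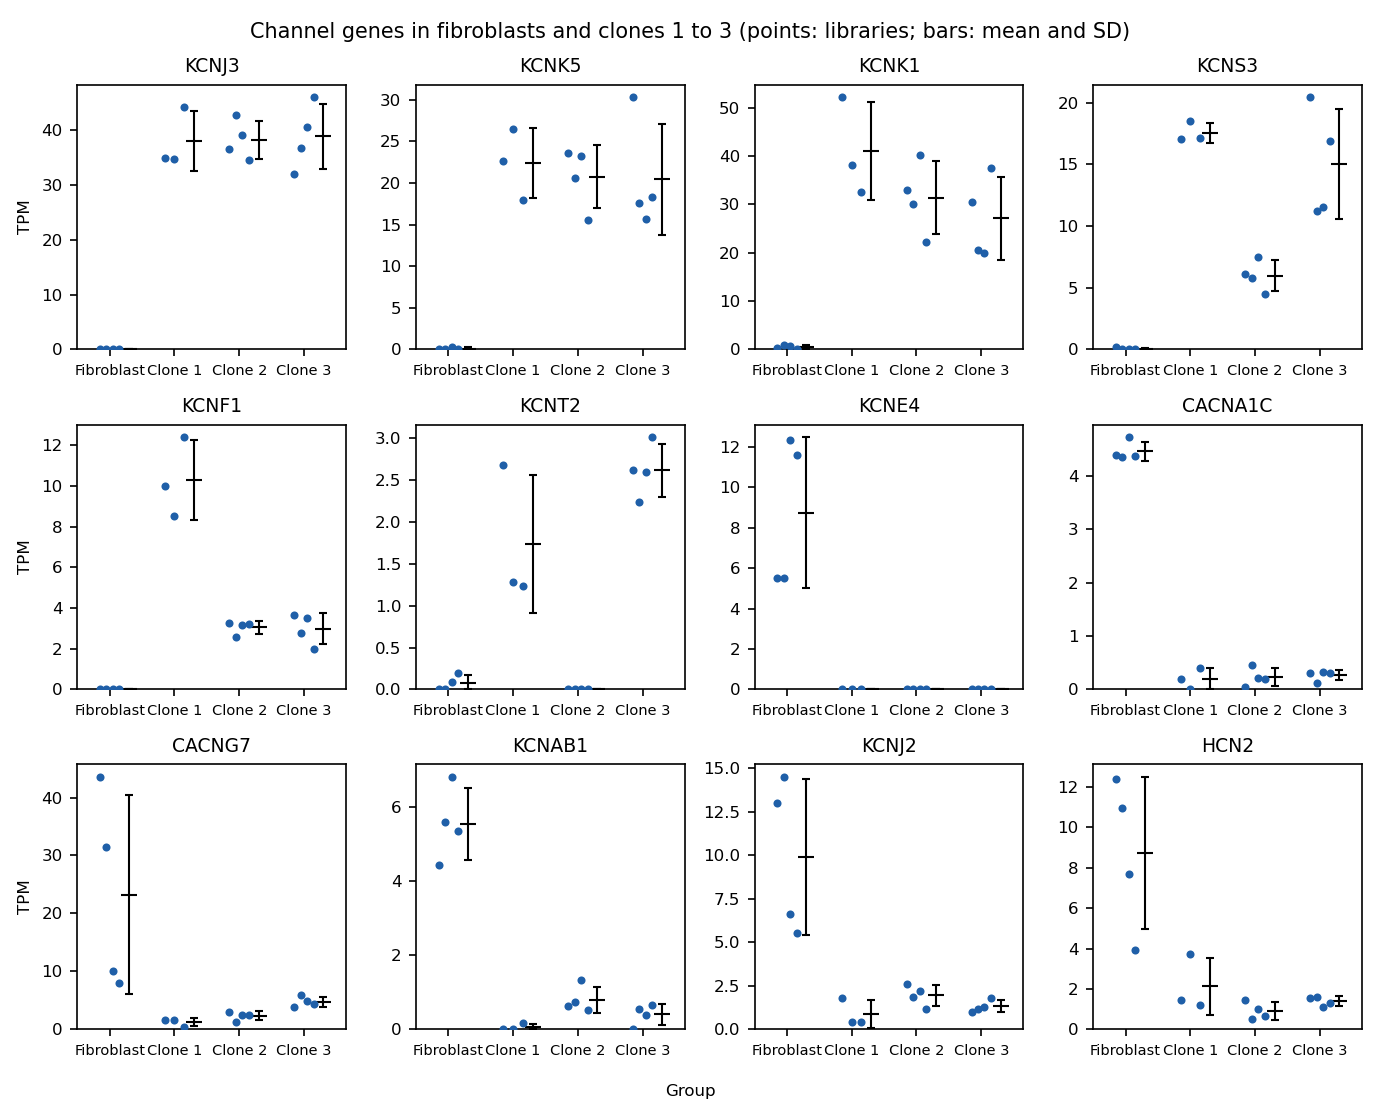
TPM of 12 channel genes in fibroblasts (4 libraries) and in clones 1 (3 libraries), 2 and 3 (4 libraries each). Points are libraries and bars are the mean with its SD, drawn down to 0 at most; KCNJ3 lies between 31.9 and 46.1 TPM in all clone libraries, KCNE4 exceeds 0.02 TPM in fibroblasts alone, and KCNT2 is at 0 in all 4 libraries of clone 2.

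Among the 3 clones 5 of 90 members differed, and 11.6% of all genes did. KCNT2, a sodium-activated channel, was at 2.68, 1.28 and 1.23 TPM in clone 1, at 0 in all 4 libraries of clone 2, and at 2.62, 2.23, 2.59 and 3.01 TPM in clone 3 (adjusted p = 0.000204). KCNF1 was the higher in clone 1, at 9.99, 8.51 and 12.4 TPM against 2.58 to 3.27 in clone 2 and 1.99 to 3.67 in clone 3 (adjusted p = 0.00671). KCNS3, a silent subunit like KCNF1, was at 17.0, 18.5 and 17.1 TPM in clone 1, 4.45 to 7.50 in clone 2 and 11.2 to 20.4 in clone 3 (adjusted p = 0.00732). KCND3 differed at levels under 1 TPM (adjusted p = 0.00843) and was at 0 in clone 1. The count moved with the method: 14 members differed in DESeq2 and 12 when fibroblasts were left out of the fit, and between 5 and 12 when a library was left out. The share of all genes is not given for these fits.

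Genes outside the families whose proteins serve channels were read from a list of 28 partners. In cardiac against neural libraries 5 of 25 tested were higher and 12 lower, where 31.9% of all genes were higher and 31.8% lower. ABCC9, the sulfonylurea receptor of KCNJ8 and KCNJ11 channels in heart and vessels, was at 24.71 and 17.26 TPM in the cardiac libraries against 0.20 and 1.76 (log2 difference 5.87 ± 0.68, SE, adjusted p = 2.53e-07). ABCC8, the receptor of neurons and endocrine cells, was at 0.22 and 0.15 TPM against 9.88 and 10.65 (-4.99 ± 0.63, SE, adjusted p = 4.2e-07). RRAD and GEM, small GTPases that hold back calcium channels, were at means of 154 and 65.0 TPM against 9.22 and 9.83. The neural side held ANK2, an anchor of channels, with a mean of 72.5 against 3.02 TPM, and UNC79, a part of the NALCN leak channel complex, with 14.5 against 0.215 TPM.

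Against day 0 17 of 25 partners rose and 4 fell in the neural libraries, beside 32% and 31.8% of all genes. In the cardiac libraries 8 rose and 7 fell, near the 30.3% and 31.4% of all genes, and in the endothelial libraries 3 rose and 11 fell, beside 24.3% and 20.8%. From day 0 to day 1 2 rose and 11 fell, beside 17.9% and 19.5% of all genes. From day 1 to day 2 3 rose and 5 fell, beside 12.3% and 11.5%, and from day 2 to day 3 9 rose and 3 fell, beside 25.4% and 23%. In the clones 8 of 23 tested were higher and 8 lower than in fibroblasts, near the 38.6% and 35.9% of all genes, and 7 differed among the clones, beside 11.6%. In the 4 fibroblast libraries REM1, a GTPase akin to RRAD, was at 191, 142, 74.6 and 70.1 TPM.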

How the data were processed

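Libraries were made from bulk RNA of pig cells, purified on QIAGEN RNeasy columns, by a ligation-mediated method (LM-seq), per the labels' protocols. The submitters' processing notes name bcl2fastq, Bowtie 1.2.3, RSEM 1.2.3 and the genome Sscrofa11.1. The deposited tables hold estimated counts per gene, as RSEM gives them, and TPM, both used as the authors deposited them.

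Estimated counts were rounded and tested with edgeR 4.0.16 (R 4.3.3): TMM scaling, filterByExpr with a minimum count of 10, a quasi-likelihood F test and Benjamini-Hochberg adjustment over all genes tested, with calls at an adjusted p under 0.05. The 15 libraries of fibroblasts and clones 1 to 3 (14660 genes tested) and 19 libraries of clone 8 (14485 genes) were fitted apart, and tests were made within each set. Levels set across both sets are TPM as deposited, with no test. The 2 libraries whose markers went against their labels were left out. Errors of log2 differences are SE from the fit. Where a group held at most 3 counts the text gives a ratio of counts per library size with an exact interval, and where it held 0 a bound against 3 counts over the group, both covering counting error only.

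The genes named were set by a rule (the called members of at least 1 TPM in the higher group with the largest differences, up to 3 per class and direction between cardiac and neural and up to 6 per direction elsewhere, plus a list of known channels of heart and nerve). The channel families, the lists and the rule were chosen with earlier results of these data known. Alternatives were DESeq2 1.42.0, RLE scaling, no filter, limma 3.58.1 on log2(TPM + 1) and log2(TPM + 0.1), a replicate block, fits on the groups compared, other treatments of the 2 libraries and of the fibroblasts, and each library left out. Replicate numbers were not taken as pairs in the main tests. The test was tried on simulated counts. Coordinates are those of RefSeq on Sscrofa11.1. Results of some member genes are not reported here, though the counts over members include them.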

Additional observations from a re-analysis of the deposited data

Results flagged for a closer look

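In 5 of 73 groups of 4 libraries, taken where a member's mean reached 1 TPM, 1 library stood far from the other 3, and chance gives about 1 in 20. CACNA1C was at 4.72 TPM in fibroblast replicate 3 and at 4.34 to 4.39 in the others. In clone 2 KCNE1 was at 5.82 TPM in 1 library against 3.46 to 3.74, KCNF1 at 2.58 against 3.18 to 3.27, and KCNJ5 at 5.07 against 2.5 to 2.73. In clone 3 KCNK2 was at 0.55 TPM in 1 library against 1.26 to 1.38.

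In 4 members described here the clones differed by edgeR's quasi-likelihood test across the 3 clones. Their differences from the fibroblasts then differ too, since all clones are set against the same fibroblasts, and this is no separate result. The adjusted p was 0.000204 for KCNT2, 0.00671 for KCNF1, 0.00732 for KCNS3 and 0.00843 for KCND3.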

How the results depend on the processing

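Of 339 tests of named members 209 passed, and 105 of these passed under every alternative run. The share of all genes that passed is not given for the alternatives, so the counts below show only how the members' calls moved. With all libraries as labelled, edgeR called 0 members between cardiac and neural libraries (4 at an unadjusted p under 0.05), 28 between cardiac and day 0, and 42 between neural and day 0. Directions then turned for KCNT1 (0.67) and KCNJ3 (0.27) in cardiac against neural, for KCNMA1 (0.89), CACNA1G (0.61) and CACNG7 (1.59) in cardiac against day 0, and for KCNE1 (5.01) in neural against day 0. These fits mix libraries with opposite markers. Fits on the groups compared called 15 members between days 1 and 2 and 23 between days 2 and 3, with fewer genes and libraries tested. Among the clones 14 were called by DESeq2, 16 and 18 by limma on log2(TPM + 1) and log2(TPM + 0.1), 12 without fibroblasts in the fit, and 5 to 12 with a library left out; the cause was not tested.

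KCNK5 in cardiac against neural ranged from -5.56 to 2.52 with a library left out, and CACNA1G in clones against fibroblasts was 0.048 with fibroblast libraries 3 and 4 alone. With a library left out the members called ranged from 64 to 69 for cardiac against neural and from 52 to 58 for clones against fibroblasts. A replicate block called 74 and 54 there. Deviations of same-numbered libraries correlated at over 0.1 in 0 of 21 pairs of the first set. In the second set they did in 14 of 51 pairs (median 0.052), against 4 of 103 differently numbered pairs (median -0.0383). The numbers were not taken as pairs in the main tests, which therefore leave out any variation shared by number. Some such variation in the second set is not excluded. Depth limits members under 1 TPM in clone 8, and n = 2 limits the cardiac and neural groups.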

Other observations

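In all 11 groups the members at a mean of 1 TPM or more had a higher median coefficient of variation between libraries than all genes above that cut. The genes were not matched for abundance. At day 1 only 6 of the 31 members reached a mean of 5 TPM, and the part of counting noise was not tested. The median was 36.6% for members and 20.3% for all such genes at day 1, 16.3% and 10.8% at day 0, and 48.2% and 22.0% in clone 1. Replicate 1 was the highest of the 3 libraries in 27 of the 31 members at day 1 (87.1%), and in 59.4% of all genes above the same cut.

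At a mean of 1 TPM the cardiac and neural libraries shared 24 members, which is 77.4% of the 31 in the cardiac and 29.3% of the 82 in the neural libraries. The shares over all genes are not given here. KCNE1 and others below are named by the same cut. KCNE1, KCNE4, KCNJ8, KCNK6, KCNQ1 and SCN7A were among the 7 that reached it in the cardiac libraries alone. SCN7A did so narrowly, with means of 1.035 and 0.675 TPM. Its libraries overlapped, and it did not pass (edgeR quasi-likelihood test, adjusted p = 0.137).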
